A study of Homo sapiens with 9 samples.

Results

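The proteasome subunit genes were followed in U2OS cells, a human osteosarcoma cell line, after depletion of BAP1, a nuclear deubiquitinase and tumour suppressor. They were taken as every probe set that carries a single gene symbol of the form PSMA, PSMB, PSMC, PSMD, PSME, PSMF or PSMG plus a number, with the probe set of the highest mean over all 9 arrays standing for each gene. This gave 42 of the 19775 genes tested, of which 17 encode the core, 5 the ATPases, 12 the lid and base, and 8 activators, an inhibitor or assembly factors. Other genes of the complex were not analysed here. The study held 3 groups of 3 arrays. Cells of the shControl group carried a plasmid with a non-targeting shRNA, and those of the shBAP1 #1 and shBAP1 #2 groups a plasmid with either of 2 shRNAs against BAP1. In all 3 groups the cells were transfected with a lipid reagent, selected with puromycin and arrested at the G1/S border with thymidine, so the controls shared the arrest and the drug. BAP1 mRNA itself was not analysed here, so the depletion was not checked.

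The proteasome is the barrel-shaped protease that degrades ubiquitin-tagged proteins in the cytosol and nucleus. Its core is built from stacked rings of alpha subunits (PSMA genes), which gate the entry, and beta subunits (PSMB genes), some of which carry the cutting sites. A cap of ATPases (PSMC genes) and non-ATPase subunits (PSMD genes) recognises, unfolds and deubiquitinates substrates. Other caps (PSME genes) open the core without ubiquitin, and dedicated chaperones (PSMG genes and some PSMD genes) guide assembly. When proteasome activity is short, the transcription factor encoded by NFE2L1 raises the subunit genes together through antioxidant response elements, while interferon signalling replaces the catalytic beta subunits with the immunoproteasome forms encoded by PSMB8, PSMB9 and PSMB10.

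Values are log2 expression per probe set. On this scale 1 unit is a 2-fold change, and probe sets of different genes cannot be ranked by level. A gene was called changed where limma gave a Benjamini-Hochberg adjusted p below 0.05 over all 19775 genes, and standard errors (SE) come from that fit with n = 3 arrays a group. Nothing in the labels states that replicates came from independent cultures, so a p-value reflects only how these arrays spread, possibly for technical reasons. Each of the 9 arrays was also left out in turn, and calls that were lost in these leave-one-out fits are given beside the gene. In bulk RNA, fewer cells with a transcript and less of it in each cell cannot be told apart. The number of arrays limits the precision.

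Of 10 mesenchymal and osteosarcoma markers, 9 reached 5.44, the median over all probe sets, with COL1A2 at 4.53 the exception. Of the markers of other cell types, 1 of 4 haematopoietic (HBB, 5.86), 1 of 5 epithelial (EPCAM, 6.17) and 2 of 4 hepatic and neuronal genes (SNAP25, 7.00, and SYP, 5.98) reached it. In shControl, shBAP1 #1 and shBAP1 #2, EPCAM averaged 6.57, 6.03 and 5.92 and SNAP25 7.46, 6.81 and 6.71, and their part in the results was not tested. Replicate 1 of shBAP1 #2 correlated with the controls at a mean r of 0.989 across probe sets, against 0.981 and 0.982 for the other replicates of that group. Actin probe sets at the 3' end read above those at the 5' end, a sign of RNA integrity and labelling, by 0.47 to 0.51 log2 units in the controls and 0.39 to 0.46 in the shBAP1 arrays. This gap separates shControl from both shRNAs, and its part in the results below was not tested.

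With shBAP1 #1, 26.2% of the 42 genes were called, where 25.6% of all genes were. Of the 42, 2 rose and 9 fell, which is 4.76% and 21.4% of them, beside 13.0% and 12.6% of all genes. The risers were the core catalytic gene PSMB5 and the ATPase gene PSMC1. The genes that fell came from the alpha ring (PSMA2, PSMA3 and PSMA4), the immunoproteasome (PSMB10), the base and its chaperones (PSMD1, PSMD5 and PSMD10), the activators (PSME3) and the assembly factors (PSMG4). With shBAP1 #2, 38.1% of the 42 genes and 33.4% of all genes were called, and 10 of the 42 rose (23.8%) and 6 fell (14.3%), against 16.9% and 16.5% of all genes. The risers were PSMB2, PSMB5, PSMB6, PSMB8, PSMB9, PSMC1, PSMC4, PSMD2, PSMD3 and PSME1, and those that fell were PSMA4, PSMC6, PSMD11, PSME3, PSME4 and PSMG1. Without shControl replicate 1, shControl replicate 2 or shBAP1 #2 replicate 2, each left out alone, the number that rose with shBAP1 #2 was 6.

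Changes above 0 were seen in 14 of the 42 genes with shBAP1 #1 (33.3%, beside 52.1% of all genes) and in 25 with shBAP1 #2 (59.5%, beside 53.6%). The median change was -0.12 with shBAP1 #1 and 0.05 with shBAP1 #2, where the medians of all genes were 0.01 and 0.02. By array, the median over the 42 genes, set against the control mean, was -0.10, -0.12 and -0.10 in replicates 1, 2 and 3 of shBAP1 #1. In shBAP1 #2 it was 0.01, 0.05 and 0.07, and in the controls themselves it ran from -0.03 to 0.03. All 3 arrays of shBAP1 #1 lay below the controls, whereas replicate 1 of shBAP1 #2 lay among them.

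**Figure D1:**
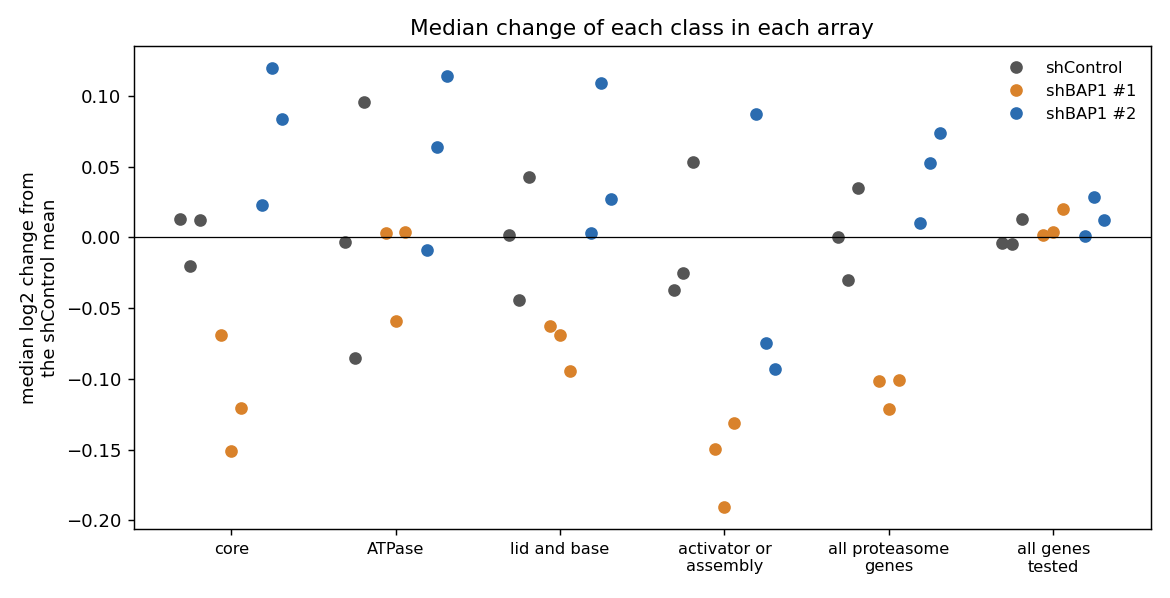
Median log2 change of the genes of each class from the shControl mean (y axis) in each array, by class (x axis), with grey points for shControl, orange for shBAP1 #1 and blue for shBAP1 #2. The activator or assembly genes of shBAP1 #1 lay lowest, at -0.13 to -0.19, while the core genes of shBAP1 #2 reached 0.12 in replicate 2.

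By class, shares are to be read against the 13.0% of all genes that rose and 12.6% that fell with shBAP1 #1, and the 16.9% and 16.5% with shBAP1 #2. Of the 17 core genes, 1 rose (5.88%) and 4 fell (23.5%) with shBAP1 #1, and 5 rose (29.4%) and 1 fell (5.88%) with shBAP1 #2. Among the 5 ATPase genes 1 rose and 0 fell with shBAP1 #1, and 2 rose and 1 fell with shBAP1 #2. Of the 12 lid and base genes, 0 rose and 3 fell (25.0%) with shBAP1 #1, and 2 rose (16.7%) and 1 fell (8.33%) with shBAP1 #2. Of the 8 activator or assembly genes, 0 rose and 2 fell (25.0%), then 1 rose (12.5%) and 3 fell (37.5%). In all, 14 of the 42 genes were called in none of the 3 comparisons, namely PSMA1, PSMA5, PSMA7, PSMA8, PSMB1, PSMB3, PSMC2, PSMC3, PSMD4, PSMD8, PSMD9, PSMD12, PSMD14 and PSMF1. The matching share of all genes was not counted, so this number does not set the members apart. PSMA8, a germ cell alternative to an alpha subunit, was the only member below the median of all probe sets (mean 3.34).

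**Figure D2:**
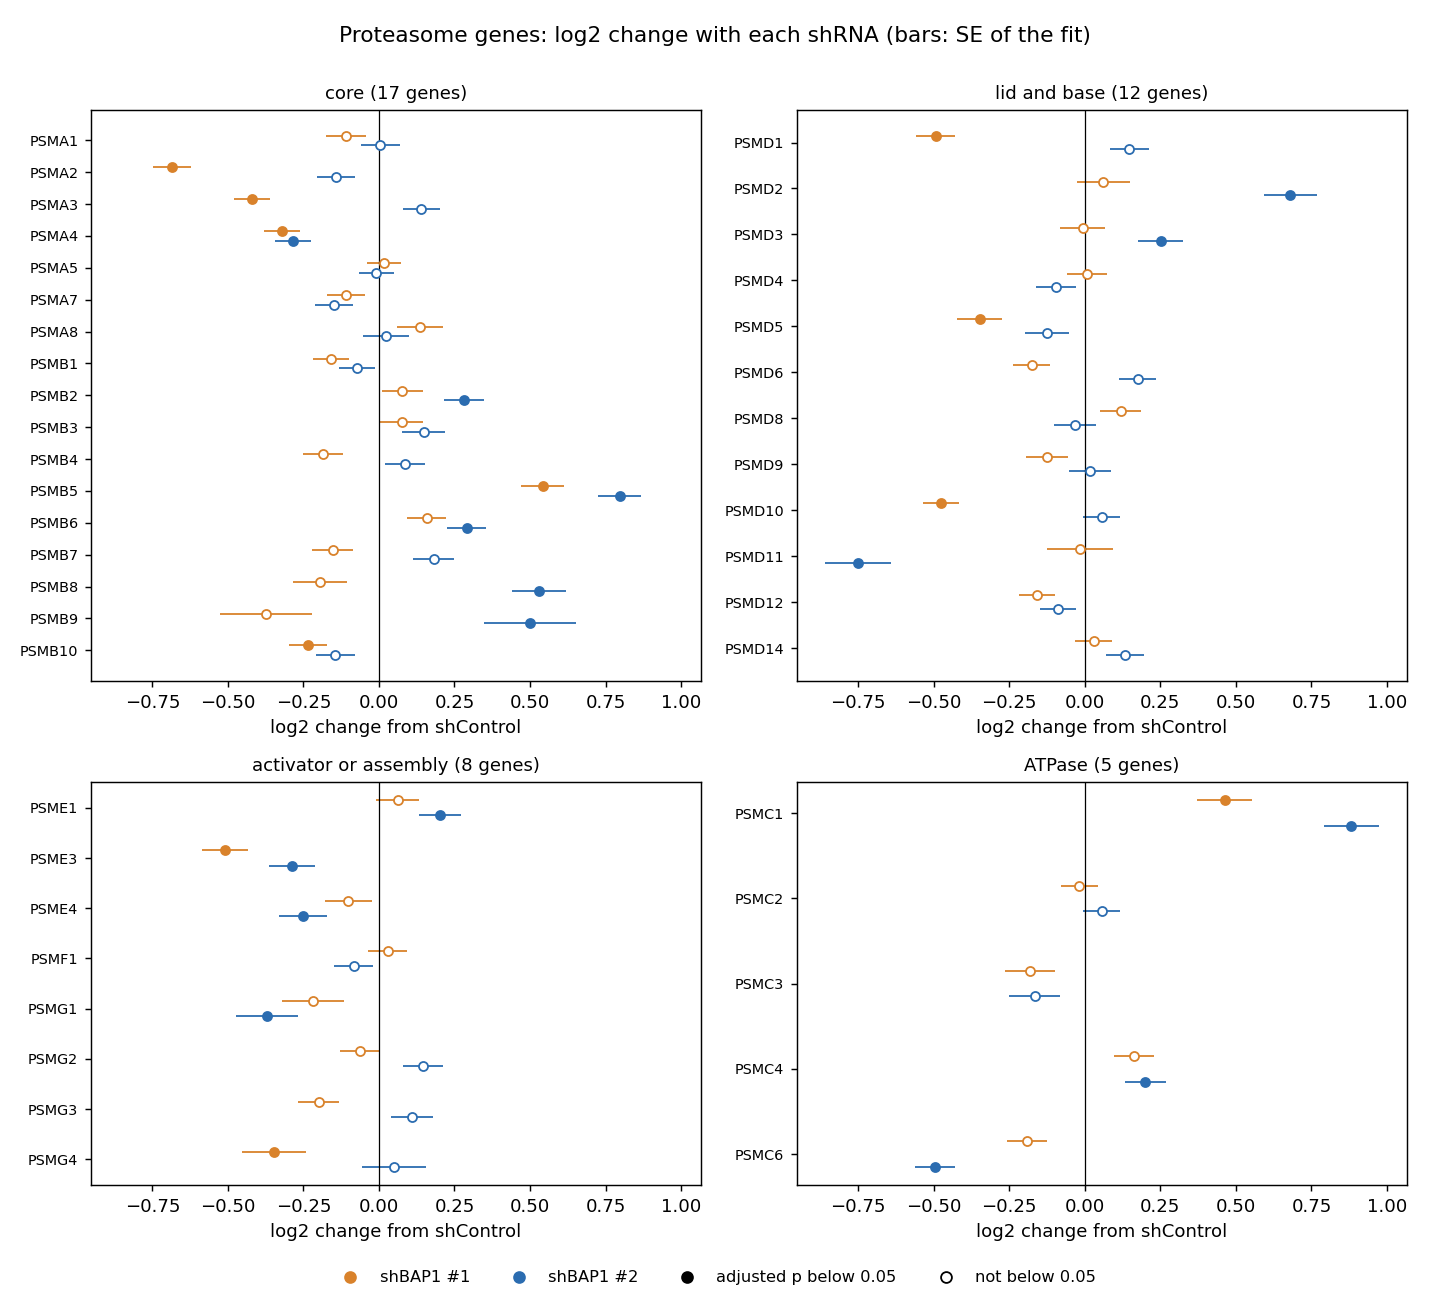
Log2 change from shControl (x axis) of each of the 42 proteasome genes with shBAP1 #1 (orange) and shBAP1 #2 (blue), in 1 panel per class. Points are fitted changes, bars are SE with n = 3 arrays a group, and filled points have an adjusted p below 0.05. PSMC1 with shBAP1 #2 (0.88) is farthest to the right and PSMD11 with shBAP1 #2 (-0.75) farthest to the left.

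Both shRNAs raised PSMB5 and PSMC1 and lowered PSMA4 and PSME3. These 4 are all that passed in both comparisons with the same sign, 4.76% of members in each direction beside 6.22% higher and 5.49% lower over all genes. No member passed in opposite directions, where 3.44% of all genes did. Without shBAP1 #1 replicate 3, 1 member did (PSMB9), and without shBAP1 #2 replicate 3 only PSMA4 fell with both. Both comparisons share the control arrays.

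PSMB5 encodes the beta subunit with chymotrypsin-like activity, the main target of the drug bortezomib. It stood at 10.88, 10.87 and 10.97 in the controls, at 11.50, 11.44 and 11.40 with shBAP1 #1 and at 11.59, 11.77 and 11.75 with shBAP1 #2. The 3 groups did not overlap. It rose by 0.54 (SE 0.07, adjusted p = 0.000274), or 1.46-fold, with shBAP1 #1 and by 0.80 (adjusted p = 2.33e-05), or 1.74-fold, with shBAP1 #2.

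PSMC1 encodes an ATPase subunit whose tail helps open the gate of the core. Its values were 10.56, 10.51 and 10.76 in shControl, 11.06, 11.04 and 11.11 in shBAP1 #1 and 11.33, 11.54 and 11.61 in shBAP1 #2. Again every shBAP1 array lay above every control, and shBAP1 #2 above shBAP1 #1. It rose by 0.46 (SE 0.09, adjusted p = 0.00332) with shBAP1 #1 and by 0.88 (adjusted p = 4.98e-05) with shBAP1 #2, that is 1.38-fold and 1.84-fold.

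PSMA4, whose protein has a tail that helps close the gate of the core, went the other way by similar amounts with both. The controls lay at 12.54, 12.54 and 12.53, shBAP1 #1 at 12.21, 12.22 and 12.21 and shBAP1 #2 at 12.20, 12.23 and 12.32. Controls and shBAP1 arrays did not overlap, whereas the 2 shRNA groups did. PSMA4 fell by 0.32 (SE 0.06, adjusted p = 0.00233) and by 0.28 (adjusted p = 0.00342).

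PSME3 encodes the nuclear activator that lets the core degrade some proteins without ubiquitin. It read 10.79, 10.88 and 10.88 in the controls, 10.24, 10.33 and 10.44 with shBAP1 #1 and 10.64, 10.58 and 10.47 with shBAP1 #2. All shBAP1 arrays lay below the controls. PSME3 fell by 0.51 (SE 0.08, adjusted p = 0.000614) and by 0.29 (adjusted p = 0.0128). Without shBAP1 #2 replicate 3 the change with that shRNA was -0.24 and was not called (adjusted p = 0.0546). With the mean of its probe sets PSME3 changed by -0.04 with shBAP1 #2 and was not called (adjusted p = 0.616).

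**Figure D3:**
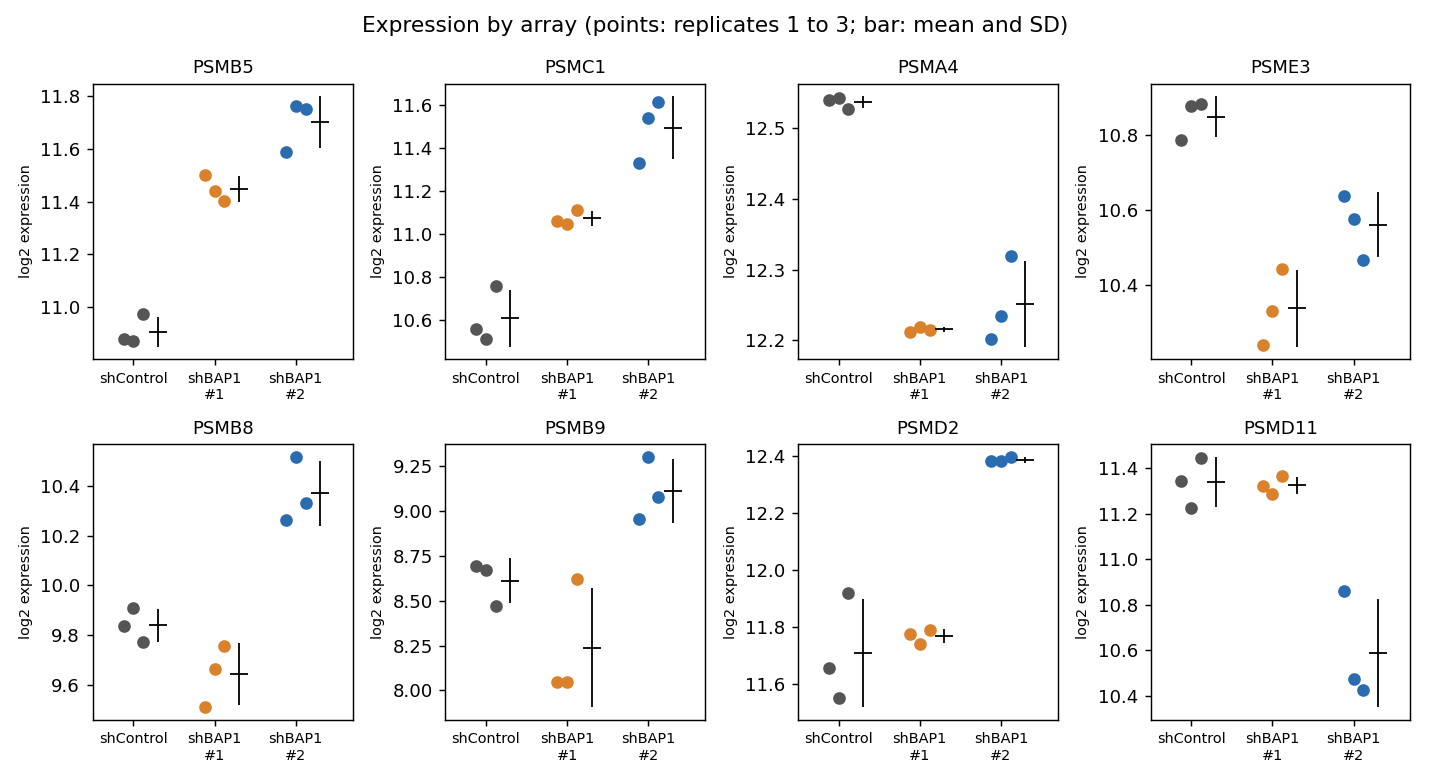
Log2 expression (y axis, a separate scale in each panel) of 8 proteasome genes in the 3 arrays of each group, with points for replicates and a bar for the mean and SD. PSMB5 and PSMC1 step up from shControl to shBAP1 #1 to shBAP1 #2, PSMA4 and PSME3 lie lower with both shRNAs, and PSMB8, PSMB9, PSMD2 and PSMD11 set shBAP1 #2 apart.

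The promoters of 36 of the 42 genes were matched by symbol in RefSeq on GRCh38.p14, as 43 windows of 300 bases, from 250 before to 50 after a gene start. Each was searched on both strands for 4 motifs, chosen because BAP1 binds the factor YY1 and because proteasome genes are known targets of the antioxidant response and of interferon. The core of the antioxidant response element, TGACNNNGC, was found in 30.2% of the 43 windows and in 13.3% of all 35116. The YY1 core AANATGGC was found in 23.3% and 6.58%, the ETS core CCGGAAG in 27.9% and 10.3%, and the interferon element core GAAANNGAA in 16.3% and 8.11%. The 4 motifs differ in sequence, and their matches can overlap. Median GC content was 62.0% in the member windows and 58.7% in all, and its part in these shares was not tested. A match describes letters in the window and is no evidence of binding.

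Windows are printed for 3 of the genes that moved the same way with both shRNAs, 5′ to 3′ on the gene's strand, with matched letters in capitals. They are the PSMB5 window on the minus strand at chr14:23035171-23035470, with 2 YY1 matches, 1 of them 3 bases before the gene start, the PSMC1 window on the plus strand at chr14:90256303-90256602, with an ETS match read on the opposite strand, and the PSMA4 window on the plus strand at chr15:78540155-78540454, with an interferon element match and a YY1 match read on the opposite strand. RefSeq lists 2 starts for PSMB5 and 3 for PSMA4, and the window with most matches, or the first of equals, is shown. The window of PSME3 held none of the 4 motifs.
PSMB5: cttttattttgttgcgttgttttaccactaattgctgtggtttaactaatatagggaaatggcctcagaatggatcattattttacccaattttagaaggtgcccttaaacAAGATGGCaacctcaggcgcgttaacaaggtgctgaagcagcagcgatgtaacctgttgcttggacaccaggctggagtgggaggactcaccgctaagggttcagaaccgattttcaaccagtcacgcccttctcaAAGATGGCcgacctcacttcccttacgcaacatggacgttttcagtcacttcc
PSMC1: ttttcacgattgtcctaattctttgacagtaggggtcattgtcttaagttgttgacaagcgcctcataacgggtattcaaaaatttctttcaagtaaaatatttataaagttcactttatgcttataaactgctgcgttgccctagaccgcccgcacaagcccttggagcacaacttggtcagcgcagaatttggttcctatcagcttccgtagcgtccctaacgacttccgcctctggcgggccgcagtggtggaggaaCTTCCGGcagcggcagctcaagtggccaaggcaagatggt
PSMA4: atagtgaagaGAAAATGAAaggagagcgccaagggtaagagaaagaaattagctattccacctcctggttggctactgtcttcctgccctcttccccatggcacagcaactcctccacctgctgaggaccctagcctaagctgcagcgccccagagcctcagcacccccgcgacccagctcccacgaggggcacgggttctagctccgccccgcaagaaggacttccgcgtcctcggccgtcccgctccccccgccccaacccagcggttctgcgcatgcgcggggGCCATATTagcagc

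The catalytic subunits come in constitutive and immunoproteasome forms. By the test between the shRNAs, PSMB5, PSMB7, PSMB8 and PSMB9 were higher in shBAP1 #2 than in shBAP1 #1. PSMB6 (0.13, adjusted p = 0.149) and PSMB10 (0.09, adjusted p = 0.341) were not called in that test. Besides PSMB5, the constitutive gene PSMB6, for caspase-like activity, rose with shBAP1 #2 by 0.29 (adjusted p = 0.00487), from 11.57, 11.52 and 11.56 in the controls to 11.76, 11.92 and 11.83. With shBAP1 #1 it read 11.74, 11.70 and 11.67, a change of 0.16 that was not called (adjusted p = 0.104), although these arrays too lay above the controls. PSMB7, for trypsin-like activity, changed by -0.15 and 0.18 and passed with neither (adjusted p = 0.142 and 0.0665). With shBAP1 #2 it was called without replicate 1 of that group (0.22, adjusted p = 0.0386) and with dim probe sets left out (0.18, adjusted p = 0.0466).

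PSMB8, which replaces PSMB5 in the immunoproteasome, was 9.84, 9.91 and 9.77 in shControl, 9.51, 9.66 and 9.76 in shBAP1 #1 and 10.26, 10.52 and 10.33 in shBAP1 #2. The shBAP1 #2 arrays lay above all others and the shBAP1 #1 arrays below the controls. It rose by 0.53 (SE 0.09, adjusted p = 0.000921) with shBAP1 #2 and changed by -0.20 with shBAP1 #1 (adjusted p = 0.148).

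PSMB9, which replaces PSMB6, read 8.69, 8.67 and 8.47 in the controls and 8.95, 9.30 and 9.08 with shBAP1 #2. With shBAP1 #1 it read 8.05, 8.04 and 8.62, so that replicate 3 stood among the controls and replicates 1 and 2 below them. PSMB9 rose by 0.50 (SE 0.15, adjusted p = 0.0272) with shBAP1 #2, and the call was lost in 5 of 9 leave-one-out fits, with the highest adjusted p without shBAP1 #2 replicate 2 (0.40, adjusted p = 0.109). With shBAP1 #1 it changed by -0.37 (adjusted p = 0.105), and by -0.57 without replicate 3 of that group, where it was called (adjusted p = 0.00499).

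PSMB10, which replaces PSMB7, did not follow them. It was 8.94, 8.91 and 8.88 in the controls, 8.61, 8.76 and 8.66 with shBAP1 #1 and 8.80, 8.78 and 8.71 with shBAP1 #2, below the controls in all 6 arrays. The fall of 0.23 with shBAP1 #1 passed (adjusted p = 0.0207) but was lost in 4 of 9 leave-one-out fits, at most at adjusted p = 0.0844 without shBAP1 #1 replicate 1 (-0.20). With shBAP1 #2 the change was -0.14 (adjusted p = 0.116).

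PSMB8 and PSMB9 lie on chromosome 6 beside TAP1, the gene of a peptide transporter that feeds proteasome products to MHC class I. The starts of TAP1 and PSMB9 lie 488 bases apart and point away from each other, and their windows share 13 bases. TAP1 rose with both shRNAs, by 0.79 and 1.36 (adjusted p = 2.67e-05 and 1.73e-06), from 8.09, 8.07 and 8.09 to 8.83, 8.85 and 8.95 with shBAP1 #1 and 9.35, 9.52 and 9.48 with shBAP1 #2. So with shBAP1 #1 TAP1 was higher while its neighbour PSMB9 was not. The windows are shown because these neighbours differ in their response: that of PSMB8 at chr6:32843998-32844297 and that of TAP1 at chr6:32853655-32853954, both on the minus strand, and that of PSMB9 on the plus strand at chr6:32853942-32854241. PSMB8 holds 1 interferon element match, TAP1 2 overlapping ones and PSMB9 an antioxidant response element match, all read on the opposite strand. The TAP1 matches lie between the starts of TAP1 and PSMB9, upstream of both genes and beyond the edge of the PSMB9 window. The windows therefore do not show that PSMB9 lacks this site, and its part in the responses was not tested. PSMB8 and TAP1 have 2 listed starts each, and the window was chosen in the same way.
PSMB8: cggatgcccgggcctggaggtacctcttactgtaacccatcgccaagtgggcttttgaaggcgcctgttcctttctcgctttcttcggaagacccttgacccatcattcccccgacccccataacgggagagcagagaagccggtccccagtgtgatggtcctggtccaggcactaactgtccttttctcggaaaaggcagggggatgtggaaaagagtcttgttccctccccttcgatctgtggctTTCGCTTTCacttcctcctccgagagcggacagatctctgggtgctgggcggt
PSMB9: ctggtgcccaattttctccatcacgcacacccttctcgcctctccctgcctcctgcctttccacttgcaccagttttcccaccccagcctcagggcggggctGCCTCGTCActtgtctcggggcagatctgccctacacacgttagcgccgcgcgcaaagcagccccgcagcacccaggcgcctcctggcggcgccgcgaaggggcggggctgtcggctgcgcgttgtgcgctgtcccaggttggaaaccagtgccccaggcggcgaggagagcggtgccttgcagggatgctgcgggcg
TAP1: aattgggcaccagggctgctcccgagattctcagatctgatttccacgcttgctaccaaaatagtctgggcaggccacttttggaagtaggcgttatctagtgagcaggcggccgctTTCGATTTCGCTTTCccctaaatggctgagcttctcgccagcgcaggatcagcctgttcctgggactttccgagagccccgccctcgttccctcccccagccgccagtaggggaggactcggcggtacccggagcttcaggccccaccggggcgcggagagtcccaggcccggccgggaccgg

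In the alpha ring, shBAP1 #1 lowered PSMA2 and PSMA3 along with PSMA4. PSMA2 went from 13.25, 13.20 and 13.29 to 12.54, 12.51 and 12.63, a fall of 0.68 (SE 0.06, adjusted p = 3.82e-05), the largest of the 42 genes with this shRNA. PSMA3, another alpha subunit gene, went from 12.46, 12.48 and 12.53 to 12.11, 12.07 and 12.04, a fall of 0.42 (adjusted p = 0.000504). With the mean of its 3 probe sets, of which the other 2 are dimmer and were not called, PSMA3 changed by -0.10 and was not called (adjusted p = 0.409). Neither group overlapped the controls. With shBAP1 #2 the same genes read 13.07, 13.09 and 13.15 and 12.60, 12.61 and 12.69, changes of -0.14 and 0.14 that did not pass (adjusted p = 0.121 and 0.105). PSMA1, PSMA5 and PSMA7 changed by between -0.15 and 0.02 in either comparison.

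The other beta subunits carry no cutting site. PSMB2 rose with shBAP1 #2 by 0.28 (adjusted p = 0.00717), from 12.31, 12.28 and 12.38 to 12.51, 12.69 and 12.61, and changed by 0.08 with shBAP1 #1 (adjusted p = 0.485). PSMB1, PSMB3 and PSMB4 changed by -0.16, 0.08 and -0.19 with shBAP1 #1 and by -0.07, 0.15 and 0.09 with shBAP1 #2, none of which passed. PSMB4 passed with shBAP1 #1 when its probe sets were averaged (-0.22, adjusted p = 0.0128) and with dim probe sets left out (adjusted p = 0.0462).

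The ATPases form a ring with 1 copy of each subunit, yet their transcripts went different ways. PSMC6 fell with shBAP1 #2 by 0.49 (SE 0.07, adjusted p = 0.000217), from 11.72, 11.76 and 11.70 to 11.29, 11.15 and 11.26. With shBAP1 #1 it read 11.55, 11.59 and 11.47, also below the controls, a change of -0.19 that was not called (adjusted p = 0.0571). It passed when shBAP1 #2 replicate 1 was left out of the fit (adjusted p = 0.048), with the mean of probe sets (0.0374) and with dim probe sets left out (0.0393). PSMC6 has only 1 probe set, and its change was -0.19 in each of these fits, so only the adjusted p moved. PSMC4 rose with shBAP1 #2 by 0.20 (adjusted p = 0.0403), a call lost in 7 of 9 leave-one-out fits, at most at adjusted p = 0.138 without shControl replicate 2 (0.16), and in a fit of only the groups compared (adjusted p = 0.0727). PSMC2 and PSMC3 changed by -0.02 and -0.18 with shBAP1 #1 and by 0.06 and -0.17 with shBAP1 #2 and passed with neither.

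The base subunits PSMD1 and PSMD2 are the large scaffolds that dock ubiquitin receptors and substrates, and each responded to a different shRNA. PSMD1 fell with shBAP1 #1 by 0.49 (SE 0.06, adjusted p = 0.000262), from 11.43, 11.42 and 11.44 to 10.90, 10.87 and 11.04. With shBAP1 #2 it read 11.56, 11.59 and 11.58, above the controls by 0.15 and not called (adjusted p = 0.109). PSMD2 rose with shBAP1 #2 by 0.68 (SE 0.09, adjusted p = 0.000192), to 12.38, 12.38 and 12.40 from 11.65, 11.55 and 11.92. With shBAP1 #1 it stayed within the span of the controls at 11.78, 11.74 and 11.79. The ubiquitin receptor gene PSMD4 changed by 0.01 and -0.10 and passed with neither.

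In the lid, PSMD11 changed most. This subunit stabilises the joint of lid, base and core. It fell with shBAP1 #2 by 0.75 (SE 0.11, adjusted p = 0.000404), from 11.35, 11.23 and 11.45 to 10.86, 10.48 and 10.43, with replicate 1 nearest to the controls. With shBAP1 #1 it read 11.32, 11.29 and 11.36, inside the control range. PSMD3 rose with shBAP1 #2 by 0.25 (adjusted p = 0.0254), a call lost in 3 of 9 leave-one-out fits, at most at adjusted p = 0.0985 without shBAP1 #2 replicate 2 (0.21). PSMD6 changed by -0.18 and 0.17, each just short of the threshold (adjusted p = 0.0609 and 0.0507), and passed with shBAP1 #2 (0.19, adjusted p = 0.0481) without replicate 1 of that group, and with both shRNAs, in opposite directions, with dim probe sets left out (adjusted p = 0.041 and 0.034). PSMD8, PSMD12 and PSMD14, the last the deubiquitinase of the lid, changed by between -0.16 and 0.13 and passed with neither shRNA.

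PSMD5, PSMD9 and PSMD10 encode chaperones that hold the ATPases during assembly and leave before the cap is complete. PSMD10, also known as gankyrin, fell with shBAP1 #1 by 0.48 (SE 0.06, adjusted p = 0.000237), from 9.79, 9.75 and 9.82 to 9.29, 9.29 and 9.34, and PSMD5 by 0.35 (adjusted p = 0.00549), from 8.93, 8.83 and 8.68 to 8.54, 8.42 and 8.44. With shBAP1 #2 PSMD10 read 9.78, 9.88 and 9.86 and PSMD5 8.68, 8.68 and 8.70, overlapping the controls (adjusted p = 0.551 and 0.246). PSMD9 changed by -0.13 and 0.02 and was not called.

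Of the chaperones of the core, PSMG1 fell with shBAP1 #2 and PSMG4 with shBAP1 #1. PSMG1 went from 8.89, 8.90 and 9.19 to 8.78, 8.57 and 8.52 with shBAP1 #2, a fall of 0.37 (SE 0.10, adjusted p = 0.0176), and read 8.78, 8.67 and 8.88 with shBAP1 #1 (-0.22, adjusted p = 0.17). Its call was lost in 3 of 9 leave-one-out fits, at most at adjusted p = 0.0709 without shBAP1 #2 replicate 3 (-0.32). PSMG4 went from 9.67, 9.73 and 9.87 to 9.25, 9.42 and 9.56 with shBAP1 #1, a fall of 0.35 (adjusted p = 0.035), lost in 5 of 9 leave-one-out fits, at most at adjusted p = 0.141 without shBAP1 #1 replicate 1 (-0.27). PSMG2, the partner of PSMG1, changed by -0.06 and 0.15, and PSMG3, the partner of PSMG4, by -0.20 and 0.11. PSMG3 was not called with shBAP1 #1 (adjusted p = 0.0578), and was called when shBAP1 #2 replicate 1 was left out (0.0403), with the mean of probe sets (0.04) and with dim probe sets left out (0.0405). PSMG3 too has only 1 probe set, and its change was -0.20 in each of these fits.

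Among the other caps, PSME1, a subunit of the interferon-inducible activator, rose with shBAP1 #2 by 0.20, from 10.80, 10.85 and 10.77 to 11.03, 11.05 and 10.95. The adjusted p of 0.0461 lay near the threshold and was lost in 8 of 9 leave-one-out fits, at most at adjusted p = 0.137 without shBAP1 #2 replicate 2 (0.18), with cyclic loess (0.19, adjusted p = 0.0734) and with only sets without a shared-probe suffix (adjusted p = 0.0562). PSME1 has only 1 probe set, so its change stayed at 0.20 under the last of these settings. PSME4, a large nuclear activator, fell with shBAP1 #2 by 0.25 (adjusted p = 0.0303), lost in 4 of 9 leave-one-out fits, at most at adjusted p = 0.101 without shControl replicate 1 (-0.23). PSMF1, an inhibitor of the core in the test tube, changed by 0.03 and -0.08 and was not called.

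The shRNAs differed from each other in 21 of the 42 genes, where 34.7% of all genes did. With shBAP1 #2 set against shBAP1 #1, 19 genes were higher (45.2%) and 2 lower (4.76%), beside 17.1% and 17.6% of all genes. The difference was positive in 32 of the 42 genes and in 51.3% of all genes, with medians of 0.14 and 0.01. The largest positive differences were those of PSMB9 (0.87, SE 0.15), PSMB8 (0.73), PSMD1 (0.64), PSMD2 (0.62), PSMA3 (0.56) and PSMA2 (0.54). The 2 lower genes were PSMD11 (-0.74) and PSMC6 (-0.30). For PSMA2, PSMA3 and PSMD1 the difference came with a fall under shBAP1 #1, and for PSMB8, PSMB9, PSMD2 and PSMD11 with a change under shBAP1 #2. PSMB4, PSMB7, PSMD6, PSMG2 and PSMG3 differed between the shRNAs although neither shRNA passed against the controls. Without replicate 1 of shBAP1 #2, the array of its group most like the controls, 16 genes were higher and 2 lower.

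Several members are read by more than 1 probe set, 22 of the 42, and some are represented by a set with a suffix for probes that match several transcripts (14 with s, 3 with x and 1 with a). The other set of PSMD1 changed by -0.55 and 0.16, that of PSMD10 by -0.47 and 0.10 and that of PSMA2 by -0.85 and 0.32, the last called higher with shBAP1 #2. PSMB5, PSMB8, PSMB9, PSMA4, PSMC1 and PSMD2 have no further set.

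Probe sets of the same gene were called in opposite directions for PSMB2, PSME3, PSME4 and PSMG4, with p-values here adjusted over all 54675 probe sets. For PSME3 the 2 brightest sets fell with both shRNAs (-0.51 and -0.29, then -0.50 and -0.29). The next set (mean 10.29, beside 10.58 for the set used) changed by 0.08 and 0.15 and was not called. The dimmest changed by 0.16 and 0.26, higher with shBAP1 #2. For PSME4 the brightest set fell by 0.25 with shBAP1 #2 and the dimmest rose by 1.19. A set of PSMB2 changed by -0.29 with shBAP1 #2, against 0.28 for the set used. A dim set of PSMG4 (mean 4.40) changed by 0.43 with shBAP1 #1. Of the 14 genes called in no comparison, 6 have a dimmer set that was called against shControl. The matching shares of all genes were not counted, for these or for sets called in opposite directions. Neither number therefore sets the members apart. PSMF1 has a set that rose by 0.48 with shBAP1 #1 and fell by 0.60 with shBAP1 #2, and a dim one that rose by 0.41 with shBAP1 #1. A dimmer set rose with both shRNAs for PSMA5 (0.71 and 0.46), PSMD9 (0.27 and 0.88) and PSMD12 (0.35 and 0.43). For PSMC2 a dimmer set rose with shBAP1 #2 (0.63), and for PSMA7 one fell with shBAP1 #1 (-0.23). PSMD4 has a dimmer set that was called only between the shRNAs, lower in shBAP1 #2 than in shBAP1 #1 (-0.20, adjusted p = 0.0326). The dimmer set of PSMD11 (mean 5.62) changed by 0.01 with shBAP1 #2, so the fall of this gene rests on 1 probe set. Calls that were lost or turned when other sets or their mean were read include those of PSMB2, PSMD11, PSME3, PSME4 and PSMG4. They also include those of PSMA3 with shBAP1 #1 and, between the shRNAs, of PSMA3 (0.0084, adjusted p = 0.952), PSMB7 (0.23, adjusted p = 0.201) and PSMD5 (0.0919, adjusted p = 0.288).

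**Figure D4:**
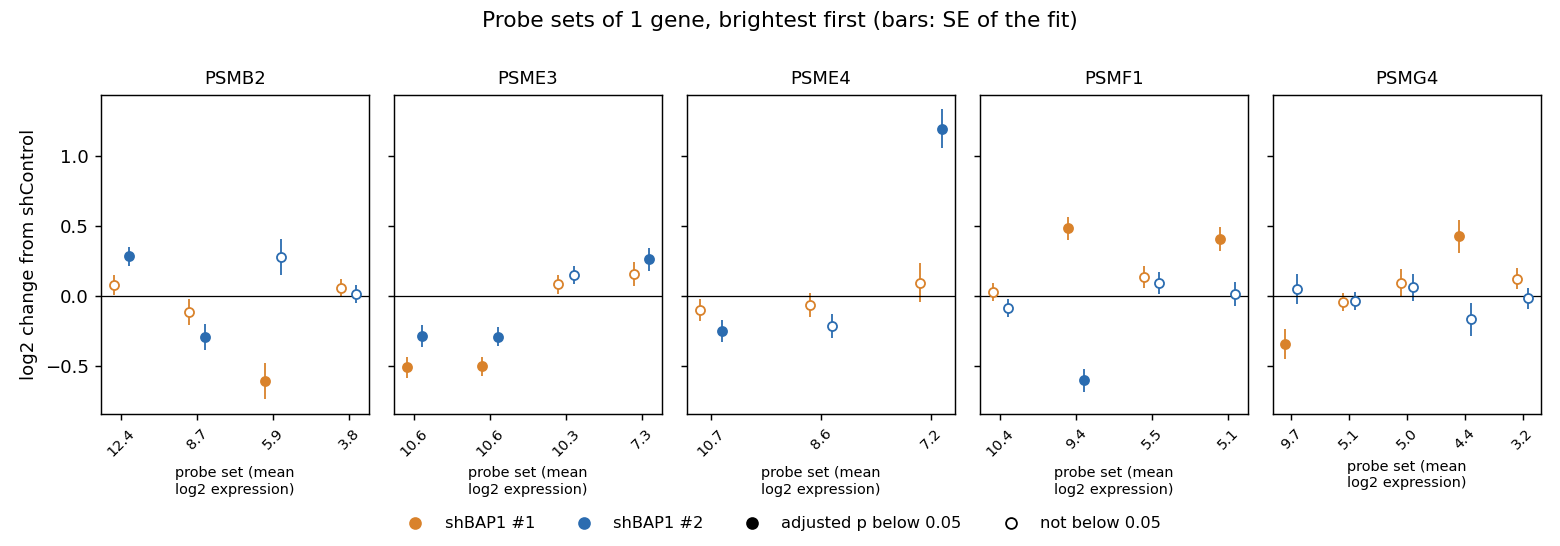
Log2 change from shControl (y axis) of each probe set of 5 proteasome genes, ordered from the brightest on the left and labelled by the mean log2 expression over the 9 arrays (x axis). Orange is shBAP1 #1, blue shBAP1 #2, bars are SE, and filled points have an adjusted p below 0.05 over all probe sets. The dimmest set of PSME4 rises by 1.19 with shBAP1 #2 while its brightest falls by 0.25.

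Genes that work with the proteasome were taken from lists of partners. Of 16 measured receptors, associated proteins and assembly factors, 4 rose and 5 fell with shBAP1 #1, and 5 rose and 4 fell with shBAP1 #2, with medians of 0.00 and 0.05. Over all genes 13.0% rose and 12.6% fell with shBAP1 #1 and 16.9% and 16.5% with shBAP1 #2, at medians of 0.01 and 0.02, and 6.22% rose and 5.49% fell with both. Among the partners, those that moved the same way with both were USP14, a proteasome-bound deubiquitinase (0.27 and 0.38), AKIRIN2, which brings proteasomes into the nucleus (0.32 and 0.46), and ZFAND5, a proteasome activator (0.38 and 0.41), all higher, and the proteasome-bound ligase UBE3C, lower (-0.28 and -0.58). The call of UBE3C with shBAP1 #1 was lost in 4 of 9 leave-one-out fits, at most at adjusted p = 0.0722 without shBAP1 #1 replicate 1 (-0.27). The mean of its probe sets gave USP14 a change of 0.05 with shBAP1 #1 that was not called (adjusted p = 0.632). With sets without a shared-probe suffix, USP14 changed by -0.16 with shBAP1 #1 (adjusted p = 0.165), and ZFAND5 by 0.11 and 0.25, called with neither (adjusted p = 0.534 and 0.0862). With the mean of its sets ZFAND5 changed by 0.14 with shBAP1 #2 (adjusted p = 0.0987).

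The shuttle receptor gene RAD23B, which delivers ubiquitinated proteins, fell with shBAP1 #2 and was not called with shBAP1 #1. It read 11.65, 11.84 and 11.71 in the controls, 11.65, 11.90 and 11.82 with shBAP1 #1 and 10.46, 10.01 and 9.90 with shBAP1 #2, a change of -1.61 (SE 0.13, adjusted p = 1.67e-05), and the difference between the shRNAs was -1.67 (adjusted p = 8.76e-06). PITHD1, a proteasome-associated protein, changed in opposite directions, by -0.69 and 0.94, and UBQLN4, another shuttle receptor gene, rose by 0.64 with shBAP1 #1 and changed by -0.10 with shBAP1 #2. PITHD1 and UBQLN2 (-0.31 and 0.31), the latter named after its values were seen, were the 2 genes of this list called in opposite directions. Over all genes 3.44% were.

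The transcription factor pathway that controls proteasome genes showed 2 of 10 genes higher and 2 lower with shBAP1 #1, and 7 higher and 1 lower with shBAP1 #2 (medians -0.02 and 0.40), beside 13.0% and 12.6%, then 16.9% and 16.5%, of all genes (medians 0.01 and 0.02). The list mixes genes with different roles, so these counts and medians give no direction for the pathway. NFE2L1 itself was not called with shBAP1 #1 (-0.22) and fell with shBAP1 #2 (-0.43). NPLOC4, a cofactor of the unfoldase VCP that extracts the NFE2L1 protein from the endoplasmic reticulum, rose with both (0.77 and 0.79), as did the small Maf factor gene MAFF (0.43 and 0.51). MAFF lost its call with shBAP1 #1 in 4 of 9 leave-one-out fits, at most at adjusted p = 0.0955 without shControl replicate 1 (0.34). NFE2L2, which encodes the antioxidant factor NRF2, read 10.52, 10.52 and 10.58 in the controls, 9.69, 9.79 and 9.70 with shBAP1 #1 and 10.85, 10.60 and 10.88 with shBAP1 #2. It fell by 0.81 with shBAP1 #1 (adjusted p = 5.55e-05). Its rise of 0.24 (adjusted p = 0.0439) under the other shRNA was lost in 8 of 9 leave-one-out fits, at most at adjusted p = 0.155 without shBAP1 #2 replicate 3 (0.19), and under every other alternative run except with dim probe sets left out, at adjusted p from 0.0515 to 0.125. MAFG, the partner of both factors, changed by -0.15 with shBAP1 #1 and rose by 1.03 with shBAP1 #2 (adjusted p = 6.12e-05). NFE2L1 was named after its values were seen, as the best known regulator of these genes.

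Of 10 measured genes for ubiquitin, its activation and conjugation, 2 rose and 2 fell with shBAP1 #1 and 3 rose and 0 fell with shBAP1 #2 (medians 0.11 and 0.09), against 13.0% and 12.6%, then 16.9% and 16.5%, over all genes (medians 0.01 and 0.02). UBE2A, a conjugating enzyme gene, fell by 0.75 with shBAP1 #1 (adjusted p = 4.04e-05), and UBE2N rose by 0.37. UBE2R2 rose by 0.33 with shBAP1 #2, and the activating enzyme gene UBA6 changed by -0.47 and 0.39, the latter lost in 2 of 9 leave-one-out fits, at most at adjusted p = 0.0823 without shBAP1 #2 replicate 3 (0.31). The fall of UBA6 with shBAP1 #1 was lost with the mean of its sets (-0.19, adjusted p = 0.106) and with sets without a shared-probe suffix (-0.27, adjusted p = 0.137). UBE2N, not called with shBAP1 #2 (0.10), rose there under the same settings, by 0.47 and 1.08.

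The COP9 signalosome, a relative of the lid that switches off cullin ubiquitin ligases, gave 2 of 10 genes higher and 2 lower with shBAP1 #1, and 0 higher and 2 lower with shBAP1 #2 (medians 0.15 and -0.07). The shares of all genes were 13.0% and 12.6%, then 16.9% and 16.5% (medians 0.01 and 0.02). No gene of the 10 changed the same way with both, where 6.22% of all genes rose and 5.49% fell with both. COPS5, its catalytic subunit, fell with shBAP1 #1 from 11.33, 11.33 and 11.38 to 10.33, 10.42 and 10.55, by 0.91 (adjusted p = 2.03e-05), and read 11.18, 11.30 and 11.34 with shBAP1 #2. COPS3 fell by 1.24 with shBAP1 #1 and changed by -0.12 with shBAP1 #2. The subunit genes GPS1 and COPS7A fell with shBAP1 #2, by 0.61 and 0.77, and changed by 0.18 each with shBAP1 #1.

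Of 12 measured antigen processing genes that work with the immunoproteasome, 4 rose and 2 fell with shBAP1 #1 and 5 rose and 0 fell with shBAP1 #2 (medians 0.14 each), where 13.0% and 12.6%, then 16.9% and 16.5%, of all genes did (medians 0.01 and 0.02). TAPBP, the tapasin gene that loads peptide onto MHC class I, rose with both like TAP1, by 0.47 and 1.06. CANX, a chaperone of the endoplasmic reticulum, fell by 1.40 with shBAP1 #1, to 10.22, 10.56 and 10.44 from 11.86, 11.79 and 11.77, and rose by 0.47 with shBAP1 #2, to 12.10, 12.32 and 12.41.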

How the data were processed

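RNA of 9 U2OS samples was labelled with biotin and hybridised to 1-colour arrays. The deposited values are log2 expression per probe set after RMA (background correction, quantile normalization and probe summary), per the submitters' processing notes, with no version given. RMA removes shifts shared by all transcripts and compresses changes of dim probe sets. Groups came from the sample titles. Of 54675 probe sets, 41097 have 1 symbol in the platform annotation, and the set with the highest mean was kept for each of 19775 genes, with no filter. Group means without covariates were fitted with limma 3.58.1 in R 4.3.3 (lmFit, then eBayes, with two-sided tests) to all 9 arrays, with 6 residual and 4.33 prior degrees of freedom, and tested on simulated data. Named genes were the members changed the same way by both shRNAs, those with the largest changes or smallest p, catalytic pairs, activators, assembly genes and members whose probe sets disagreed, plus from every partner list the genes that both shRNAs moved in 1 direction and the 2 with the smallest p per shRNA. Members and lists were chosen with earlier results of these data known. Alternatives were the mean of probe sets, sets without a shared-probe suffix, cyclic loess, dim sets left out, only the groups compared, the replicate block and each array left out. Figures used matplotlib 3.10.9 in Python 3.11.15.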

Additional observations from a re-analysis of the deposited data

Results flagged for a closer look

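The change from shControl differed between the 2 shRNAs in 21 of the 42 genes by the test of the difference itself (limma, adjusted p below 0.05, shBAP1 #2 minus shBAP1 #1, log2). In the core the differences were 0.54 for PSMA2, 0.56 for PSMA3, 0.20 for PSMB2, 0.27 for PSMB4, 0.25 for PSMB5, 0.33 for PSMB7, 0.73 for PSMB8 and 0.87 for PSMB9. Of the ATPases, PSMC1 differed by 0.42 and PSMC6 by -0.30. In the lid, base and base chaperones they were 0.64 for PSMD1, 0.62 for PSMD2, 0.26 for PSMD3, 0.22 for PSMD5, 0.35 for PSMD6, 0.53 for PSMD10 and -0.74 for PSMD11. Among activators and assembly factors they were 0.22 for PSME3, 0.21 for PSMG2, 0.31 for PSMG3 and 0.40 for PSMG4. Of these calls, those of PSMB2, PSMB5, PSMD3, PSMD5, PSME3, PSMG2 and PSMG4 did not survive 6, 3, 2, 6, 7, 5 and 1 of 9 leave-one-out fits. The highest adjusted p of each was 0.128, 0.0629 and 0.0843 (all without shBAP1 #2 replicate 2), 0.117 (without shBAP1 #1 replicate 2), 0.16 (without shBAP1 #1 replicate 1), 0.101 (without shBAP1 #1 replicate 2) and 0.0617 (without shBAP1 #1 replicate 1), at differences of 0.16, 0.22, 0.21, 0.20, 0.17, 0.18 and 0.32. The calls of PSMB2 and PSME3 were also lost with cyclic loess (adjusted p = 0.0557 and 0.0662) and in a fit of only the groups compared (0.0574 and 0.072), and that of PSMG2 with cyclic loess (0.053). With the mean of probe sets those of PSMA3 (0.0084), PSMB7 (0.23), PSMD5 (0.0919) and PSMG4 (-0.0725) were lost, and with sets without a shared-probe suffix those of PSMD11 (-0.27, adjusted p = 0.164) and PSMG4 (0.0046).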

How the results depend on the processing

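Leaving out 1 array at a time, the genes higher and lower were 2 to 2 and 7 to 11 with shBAP1 #1, 6 to 11 and 4 to 6 with shBAP1 #2, and 13 to 18 and 2 to 2 for the difference between the shRNAs. Those changed the same way by both were 2 to 2 higher and 1 to 3 lower, and those changed in opposite ways 0 to 1. With the mean of all probe sets, 4 genes rose with shBAP1 #1. Only 32 of the 42 genes have a probe set without a shared-probe suffix. With those sets 1 gene rose with shBAP1 #1, 1 was lower in shBAP1 #2 than in shBAP1 #1, 1 rose and 1 fell with both, and 1 changed in opposite ways. The median change with shBAP1 #1 was -0.07 under either of these 2 settings, and with shBAP1 #2 0.14 under the latter. With dim sets left out 1 changed in opposite ways. Cyclic loess, only the groups compared and the replicate block kept every count of called members within 1.5 times. With the replicate block, 2 and 8 genes rose and fell with shBAP1 #1, 8 and 6 with shBAP1 #2, and 17 and 2 were higher and lower in shBAP1 #2 than in shBAP1 #1. The block ended the calls of PSMC4, PSME1 and NFE2L2 with shBAP1 #2 (adjusted p = 0.0551, 0.0784 and 0.0617), PSMG4 with shBAP1 #1 (0.054), and PSMB2 and PSME3 between the shRNAs (0.0546 and 0.0692). Same-numbered samples did not deviate together in every pair (r from -0.21 to 0.22), so the numbers were not taken as pairs. Between shControl and shBAP1 #1, however, r was 0.11, 0.20 and 0.22 for the same number and -0.22 to 0.04 for different numbers. In pairs with shBAP1 #2 it ran from -0.21 to 0.18 and from -0.24 to 0.24. Some directions turned. With sets without a shared-probe suffix these were PSMA2 (0.32), PSMB2 (-0.61 with shBAP1 #1), PSMD11 (0.0117), USP14 (-0.16 with shBAP1 #1) and UBE2N (0.66 between the shRNAs). With the mean of probe sets they were PSMA5 (0.23), PSMD12 (0.17), PSME4 (0.24, and 0.27 between the shRNAs), PSMG4 (0.0511 with shBAP1 #1, and -0.0725 between the shRNAs), UBE3C (0.0607 between the shRNAs) and UBE2N (0.062 between the shRNAs). Values not marked are for shBAP1 #2 against shControl. These settings read other probe sets of the same genes, and the cause was not tested further.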
